A study of Lupinus albus with 12 samples.

Results

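The genes described here are those whose deposited protein name holds the words transcription factor C2H2, 348 of the 23427 genes in the value table. They were measured in root tip sections of wildtype white lupin (Lupinus albus cv. Amiga) grown in Hoagland solution and harvested before or after sucrose was added to that solution at 10 mM. The groups were a control harvested at 0 min without sucrose and roots exposed for 10, 15 or 20 min, with 3 libraries each and 12 in all. PCR-amplified cDNA was read by Oxford Nanopore sequencing with a separate flow cell for each of the 3 biological replications, so a replicate number also names a flow cell. The control was not harvested at each later time without sucrose, so sucrose and the time elapsed in the pot cannot be told apart. In whole root sections a change in the RNA of a cell cannot be told apart from a change in the share of the cells that make it.

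A C2H2 zinc finger is a short protein fold in which a pair of cysteines and a pair of histidines hold a zinc ion. In plants many DNA-binding C2H2 factors act in root and trichome development, in hormone responses and in tolerance of stress, among them the STOP1 type, which is known in Arabidopsis for aluminum and acid tolerance. The RING finger of many ubiquitin ligases also holds zinc through cysteines and histidines but binds proteins rather than DNA.

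The family name covered genes with very different annotation. Of the 348 genes, 338 carried only the family name and 10 carried it behind an enzyme-type name, among them 3 histone deacetylases and 2 ubiquitinyl hydrolases. A GO term was deposited for 220 (63.2%). Only 15 had a term for DNA-binding transcription factor activity, and 51 had such a term, the general term for DNA binding or one for regulation of transcription. In contrast, 37 had a ubiquitin term, 44 a membrane term and 76 a zinc or metal term. The genes are therefore called C2H2-named genes below, and not all of them were annotated as transcription factors.

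By the first role their GO terms gave, 50 C2H2-named genes fell under transcription factor or regulation of transcription and 22 under the ubiquitin system. The former group also took in the general term for DNA binding. A further 10 were annotated to the CCR4-NOT complex, which shortens the poly(A) tails of mRNA, and all 10 also had a ubiquitin term. There were 11 for RNA processing, 8 for abscisic acid signaling, 6 for histone modification, 5 for the response to aluminum and acidic pH, 4 for trichome morphogenesis, 3 for organ growth and 2 for sugar mediated signaling. The other genes had a zinc, metal or other GO term (63, of which 37 a zinc or metal term), a membrane term alone (36) or no GO term (128). The genes lay on 25 chromosomes of the assembly CNRS_Lalb_1.0, with 7 to 24 on each, and 24 on both chromosome 2 and chromosome 3.

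**Figure D1:**
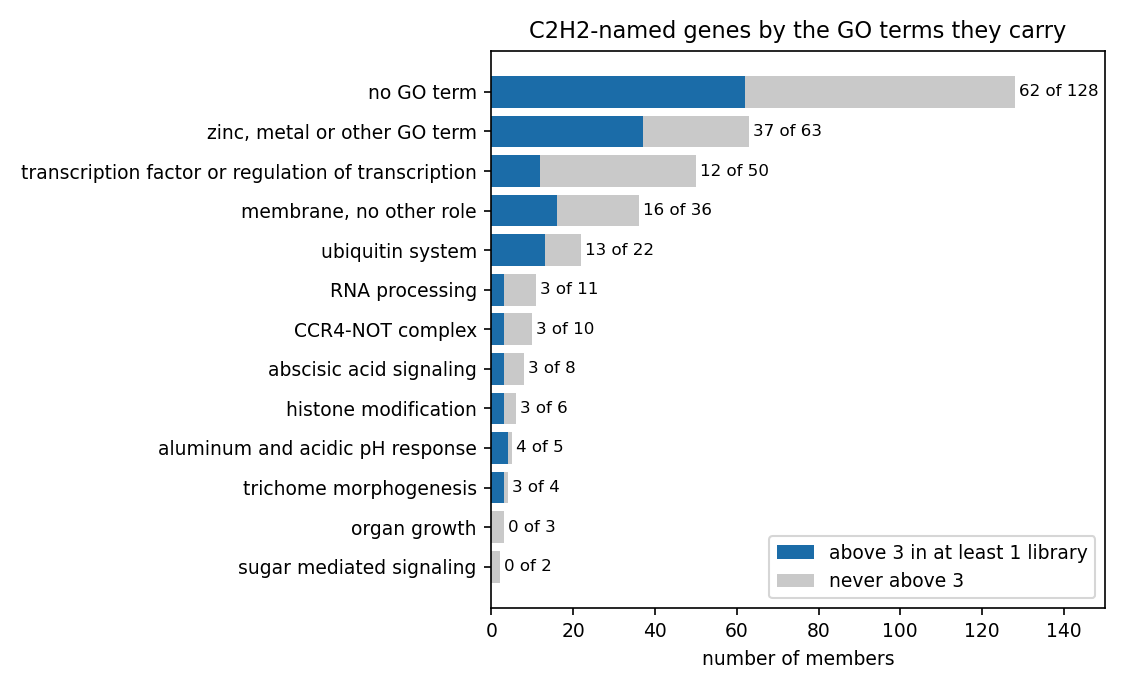
Number of C2H2-named genes in each role (x axis, number of genes), split into those above 3 in at least 1 of the 12 libraries (blue) and those never above 3 (grey). Of the 50 genes with a transcription role, 12 exceeded a deposited value of 3, against 37 of the 63 with a zinc, metal or other GO term.

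Most C2H2-named genes had low values. The deposited values are whole numbers under the name CPM whose scale is not given, so they are called deposited values here and tested between libraries. Where genes are ordered by them, the order is one of deposited values and not of expression per length. There were 189 genes (54.3%) that never exceeded 3 in any library, against 45.9% of all genes, and 107 had a median of 0. Values above 0 in all 12 libraries were found for 101 genes, in 1 library only for 39 and in 2 only for 19. For testing, a gene had to reach 1 in 3 or more libraries, which 290 C2H2-named genes met (83.3%, against 81.7% of all genes) and 58 did not. Among those tested, 132 never exceeded 3, so many of the differences below are differences of a few units. There were 73 C2H2-named genes at 0 in every control library, tested or not. Such a gene could be tested only through its sucrose libraries, and against the control it could not be lower.

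The libraries differed in ways that touch these genes. The deposited values of all genes summed to between 184071 (control replicate 2) and 407780 (control replicate 3), with 196413 in the 15 min replicate 1, and the C2H2-named genes made up 0.655% to 1.15% of the sum. The 4 libraries of flow cell 3 stood apart on the first principal component of the C2H2-named genes, which held 35.5% of their variation, with scores of 6.01 to 10.9 against -10.9 to -0.767 in the other 8. Genes of green tissue (chlorophyll-binding, photosystem and Rubisco small subunit names) made up 0.374% to 0.911% of the sum in flow cell 3 and 0.0922% to 0.168% elsewhere, except 0.336% in control replicate 2. Heat shock names made up 0.254% to 0.525%, highest in the 15 min replicate 1 and next in control replicate 2 (0.472%), the libraries with the lowest sums. No gene name matched the casparian strip words chosen as a marker of root endodermis, so that check could not be made.

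Few of the genes with the highest medians over the 12 libraries were annotated as transcription factors. Lalb_Chr01g0020391 (annotated to cytoplasm and nucleus alone, chromosome 1, 19992485 to 19993431) had deposited values of 693, 284 and 1128 before sucrose (control replicates 1, 2 and 3, the order used throughout), 872, 616 and 1258 after 10 min, 429, 802 and 985 after 15 min and 1037, 955 and 2010 after 20 min. It alone made up 23.5% to 55.1% of the summed C2H2-named values in a library, most in the 20 min replicate 3. The groups overlapped, and the difference at 20 min was 1.05 ± 0.57 (SE) in log2(value + 1), with an unadjusted p-value of 0.0921 and an adjusted p-value of 0.979 in limma. With the flow cell in the model as a block, that p-value was 0.0434 and the difference stayed below the threshold of 1.5.

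Lalb_Chr03g0038491 (chromosome 3, 10204254 to 10205002, with the same annotation) had deposited values of 132, 150 and 315 before sucrose, 320, 334 and 245 after 10 min, 152, 269 and 208 after 15 min and 261, 310 and 133 after 20 min. Flow cell 3 was the highest library of this gene in the control and the lowest at 20 min. The difference over all sucrose libraries was 0.37 ± 0.37 (SE), unadjusted p = 0.347 in limma. Without flow cell 3 the p-value was 0.0112, in a fit with 2 control libraries.

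Lalb_Chr05g0215341 (chromosome 5, 2410003 to 2411995), the only other gene annotated to cytoplasm and nucleus alone, ranged from 43 to 153, with a median of 83.5. Lalb_Chr19g0135761 (chromosome 19, 15663977 to 15665750), with a zinc ion binding term, ranged from 40 to 90, with a median of 58.5. For both, the highest value was control replicate 3 and the sucrose libraries lay within or close to the control range, with differences over all sucrose of 0.07 ± 0.37 and 0.05 ± 0.31 (SE) in log2(value + 1).

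The highest gene of the transcription group, Lalb_Chr23g0267461 (chromosome 23, 1486335 to 1487374), annotated with DNA-binding transcription factor activity, had deposited values of 117, 47 and 17 before sucrose, 67, 81 and 22 after 10 min, 26, 64 and 21 after 15 min and 79, 70 and 21 after 20 min. All 4 libraries of flow cell 3 (17 to 22) lay below the other 8 (26 to 117). The time groups overlapped, and the flow cells differed with an adjusted p-value of 0.0375 (limma, F test).

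Of the 290 genes tested, few passed a difference of at least 1.5 in log2(value + 1) with an unadjusted p-value of at most 0.05. The study used the same numbers on DESeq2 fold changes. The cut-off here is not equivalent to that one, since the added 1 shrinks differences between low values. At 10 min 1 gene was called higher (0.345%, against 0.575% of all genes tested), at 15 min 1 (0.345% against 0.449%) and at 20 min 1 (0.345% against 0.695%). Over all sucrose libraries 1 was called higher, where 0.387% of all genes were. None was called lower at 10, 15 or 20 min or over all sucrose, where 0.0732%, 0.115%, 0.131% and 0.0836% of all genes were. These contrasts share the same 3 control libraries. No C2H2-named gene passed 0.05 after adjustment over 19138 genes, which 0.00523% of all genes did in each of these contrasts, and the lowest adjusted p-value was 0.979 (limma).

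**Figure D2:**
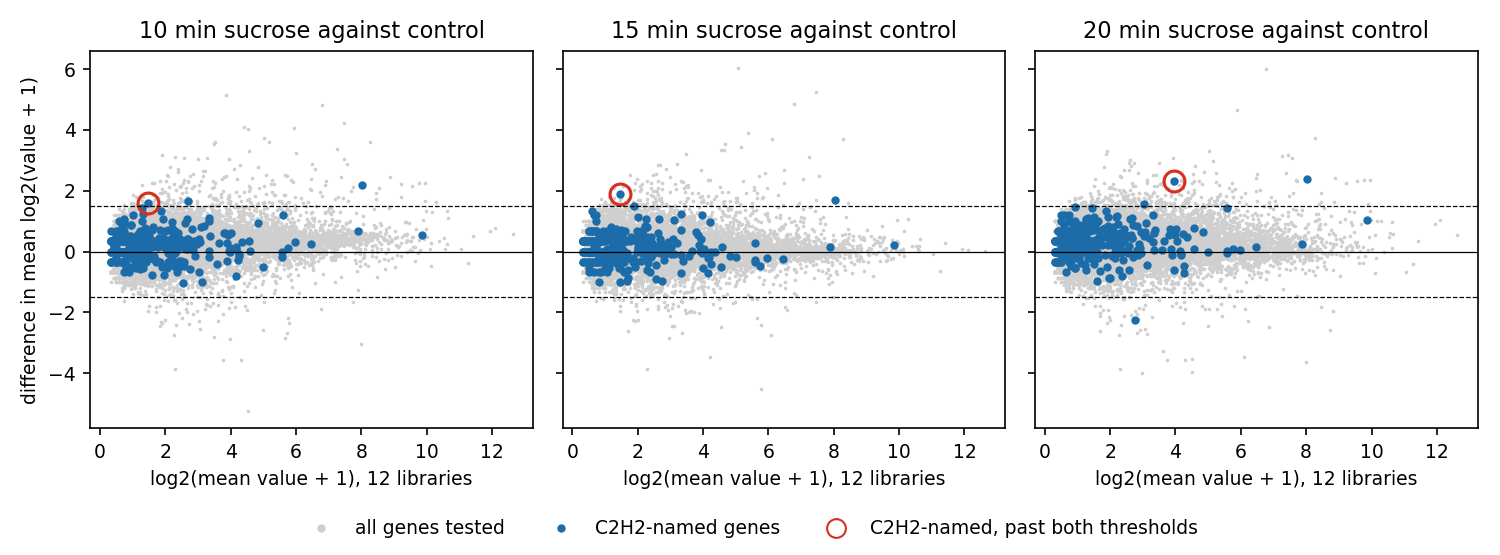
Change in mean log2(value + 1) relative to the control (y axis) against log2 of the mean deposited value plus 1 over 12 libraries (x axis) at 10, 15 and 20 min, for all 19138 genes tested (grey) and 290 C2H2-named genes (blue). The dashed lines stand at 1.5 and -1.5, and red rings mark the 1 gene at each time that also passed the p-value threshold of 0.05.

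The gene called at 10 min, at 15 min and over all sucrose was Lalb_Chr19g0133271 (chromosome 19, 14241206 to 14242448), which has no GO term. Each of the 3 control libraries listed it at 0, and it had deposited values of 2, 2 and 2 after 10 min, 4, 1 and 4 after 15 min and 1, 1 and 4 after 20 min. All 9 sucrose libraries lay above all 3 control libraries, but 4 units at most separated them. The differences in log2(value + 1) were 1.58 ± 0.46 at 10 min, 1.88 ± 0.46 at 15 min and 1.44 ± 0.46 at 20 min (SE, n = 3 libraries each), with adjusted p-values of 1, 1 and 0.979 in limma. Over all sucrose the difference was 1.64 ± 0.38 (SE), unadjusted p = 0.000972. Since the control values are all 0, a lower value was not possible and the size of the difference rests on the pseudocount. It was 0.53 with a pseudocount of 5. After median-of-ratios scaling the gene was not called at 10 min (1.48, unadjusted p = 0.0115).

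Lalb_Chr05g0224601 (chromosome 5, 8260860 to 8261463, a gene with a membrane and a metal ion binding term) had deposited values of 0, 1 and 1 before sucrose, 3, 3 and 3 after 10 min, 5, 2 and 4 after 15 min and 2, 6 and 2 after 20 min. Every sucrose library lay above every control library. The difference was 1.33 ± 0.46 at 10 min, 1.5 ± 0.46 at 15 min, rounded up and just short of the threshold, and 1.33 ± 0.46 at 20 min (SE, adjusted p-values of 1, 1 and 0.979 in limma). Over all sucrose it was 1.39 ± 0.37 (SE, unadjusted p = 0.00299). After median-of-ratios scaling the gene was called at 15 min (1.51, unadjusted p = 0.00809).

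Lalb_Chr23g0275841 (chromosome 23, 13383491 to 13385116, no GO term) was the only gene of the 3 with separated groups that had a median above 5. Its deposited values were 4, 3 and 5 before sucrose, 6, 6 and 12 after 10 min, 7, 15 and 7 after 15 min and 7, 11 and 8 after 20 min. The lowest sucrose library was 1 unit above the highest control library. The difference over all sucrose was 0.93 ± 0.33 (SE, unadjusted p = 0.0163, adjusted p = 1 in limma). After median-of-ratios scaling it was 0.74 (unadjusted p = 0.031).

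These 3 genes were 1.03% of the C2H2-named genes tested, and 36 of all genes tested (0.188%) had all sucrose libraries above all control libraries. After median-of-ratios scaling the same 3 C2H2-named genes were separated, against 0.298% of all genes. No C2H2-named gene had all sucrose libraries below the control as deposited, where 0.0261% of all genes did. After scaling 2 did, Lalb_Chr01g0022491 of the ubiquitin system and Lalb_Chr06g0161971 with a membrane term, against 0.214% of all genes. Within each flow cell, the sucrose libraries all exceeded that flow cell's control for 4 C2H2-named genes, the same 3 and Lalb_Chr21g0308671, and for 0.737% of all genes.

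Lalb_Chr21g0308671, which has a membrane term and was chosen after its values were seen, had deposited values of 4, 5 and 0 before sucrose, 7, 6 and 4 after 10 min, 8, 9 and 2 after 15 min and 6, 10 and 3 after 20 min. Flow cell 3 was the lowest library at every time, and the groups overlapped. The difference over all sucrose was 1.08 in log2(value + 1), unadjusted p = 0.082 in limma.

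The gene called at 20 min was Lalb_Chr06g0171051 (chromosome 6, 7302714 to 7303364, no GO term). Its deposited values were 25, 0 and 5 before sucrose, 10, 2 and 4 after 10 min, 3, 16 and 27 after 15 min and 32, 34 and 16 after 20 min. All 3 libraries of 20 min exceeded all 3 of 10 min but overlapped with the control. The difference from the control was 2.33 ± 1.04 (SE, unadjusted p = 0.0455, adjusted p = 0.979 in limma), and 1.11 without control replicate 2, the library at 0. After median-of-ratios scaling it was 2.17 and not called (unadjusted p = 0.0516). The call held when 3 of the 12 libraries were left out singly and not for the other 9.

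**Figure D3:**
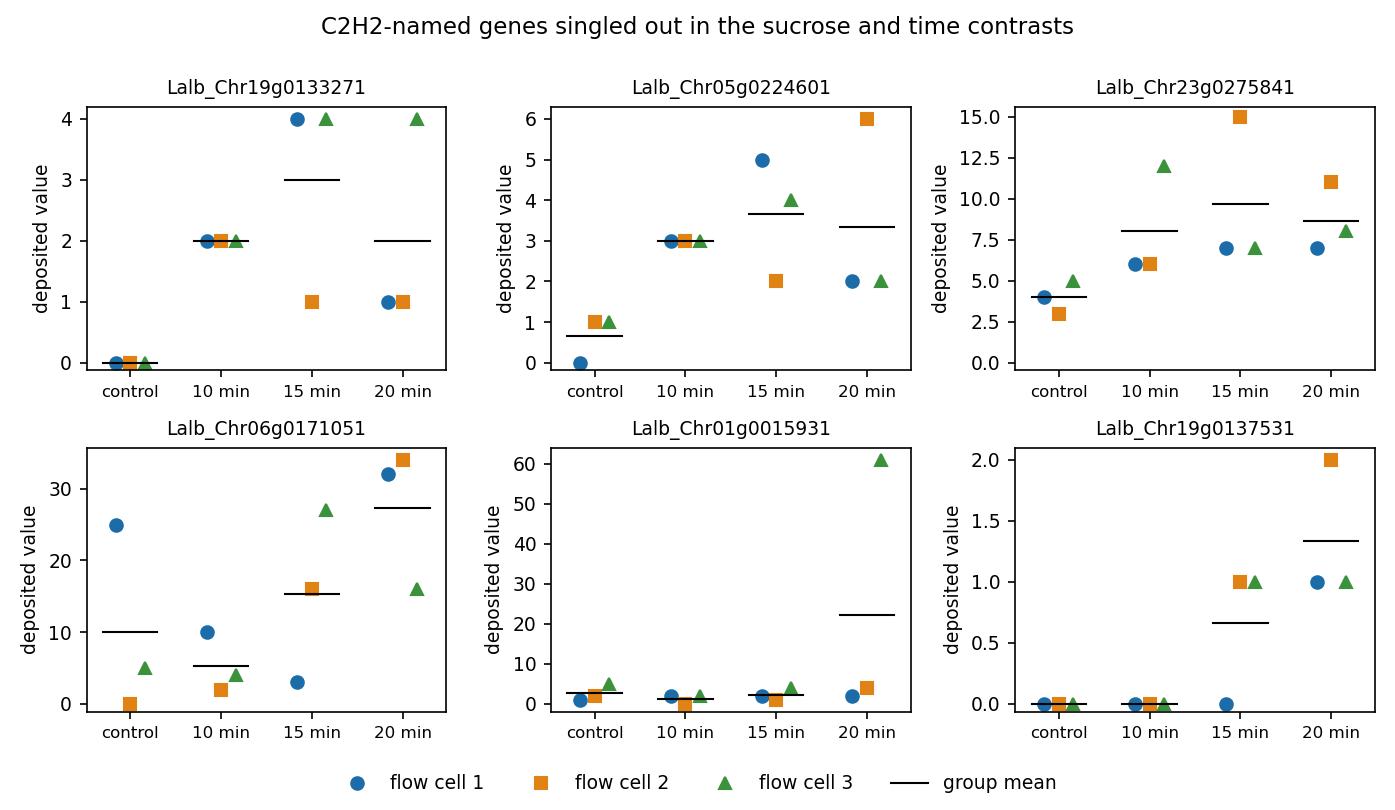
Deposited values (y axis, linear, own scale per gene) of 6 C2H2-named genes in the 12 libraries by time (x axis), with points by flow cell and a line at each group's mean. In the top row every sucrose library lies above every control library, from 0 to at least 1 in Lalb_Chr19g0133271, while Lalb_Chr01g0015931 in the bottom row reaches 61 in the 20 min replicate 3 alone.

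A wider count at an unadjusted p-value of at most 0.05, with no threshold on the difference, gave 7 C2H2-named genes higher at 10 min (2.41%, against 2.03% of all genes), 7 at 15 min (2.41% against 1.5%) and 16 at 20 min (5.52% against 3.43%). Lower genes numbered 0, 3 and 0, where 0.35%, 0.455% and 0.329% of all genes were lower. Among the 16 genes at 20 min, 7 were listed at 0 in every control library, 7 never exceeded 3 and 4 had a mean of at least 5. At 10 min 3 of the 7 higher genes were at 0 in every control library, and at 15 min 5 of the 7. Over all sucrose 12 genes were higher (4.14% against 2.9%), of which 7 were at 0 in every control library, and 1 was lower (0.345% against 0.371%). For genes at 0 in every control library the filter fixed the direction, so the excess of higher genes is in part built in. The lower gene was Lalb_Chr01g0022491, annotated to the ubiquitin system, with deposited values of 7, 6 and 8 before sucrose, 7, 5 and 3 after 10 min, 3, 3 and 4 after 15 min and 4, 3 and 6 after 20 min (-0.66 in log2(value + 1), unadjusted p = 0.0494).

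These counts moved with the libraries and the scaling. After median-of-ratios scaling 10 genes were higher and 3 lower at 20 min (3.45% higher, against 2.03% of all genes). With the flow cell as a block 22 were higher and 1 lower (7.59% against 5.32%). Without flow cell 3 the counts were 26 and 4, and the share of higher genes, 10.2%, then lay below the 13.6% of all genes.

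The median difference of the C2H2-named genes lay close to that of all genes at 10 and 15 min and somewhat above it at 20 min, without a test between them. In log2(value + 1) it was 0.19 at 10 min (all genes 0.19), 0.03 at 15 min (0.06) and 0.33 at 20 min (0.26). After median-of-ratios scaling the medians were 0.03, 0.01 and 0.16, against 0.01, 0.01 and 0.04 of all genes. For 20 against 10 min the median was 0.14 (all genes 0.02), and 0.13 (0.03) after that scaling. That scaling also moved the calls of all genes at 20 min from 84.2% higher to 64.6% higher. Within flow cells 1, 2 and 3 the median difference between sucrose and control was 0.00, 0.33 and 0.19, against 0.04, 0.39 and 0.00 of all genes.

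The median SD between replicates was 0.61 in log2(value + 1) for the C2H2-named genes and 0.60 for all genes tested. For the 59 C2H2-named genes with a mean of at least 5 it was 0.73, against 0.64 for 6477 genes. The median SE of a difference at 20 min was 0.49.

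Between the exposure times themselves, 20 min against 10 min, 2 C2H2-named genes were called higher (0.69%, against 0.23% of all genes) and none lower (0.141% of all genes). At an unadjusted p-value of at most 0.05, 10 were higher and 1 lower (3.45% and 0.345%, against 1.42% and 0.538%), and no adjusted p-value was below 1 in limma. The lower gene was Lalb_Chr13g0299101, with a membrane term, which went from 2, 2 and 1 to 0, 0 and 1. This contrast does not use the control libraries.

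The called genes were Lalb_Chr06g0171051, described above, and Lalb_Chr01g0015931 (chromosome 1, 16253837 to 16256037, no GO term). The difference of Lalb_Chr06g0171051 was 2.30 ± 1.04 (SE, unadjusted p = 0.0476, adjusted p = 1 in limma). With the flow cell as a block its unadjusted p-value in limma was 0.0508 and the call was lost. Lalb_Chr01g0015931 had deposited values of 1, 2 and 5 before sucrose, 2, 0 and 2 after 10 min, 2, 1 and 4 after 15 min and 2, 4 and 61 after 20 min. A single library, the 20 min replicate 3, stood far above all others, and that library also had the highest green tissue share (0.911%). Whether the 2 are related was not tested. The difference was 2.23 ± 0.96 (SE, unadjusted p = 0.0386) and 0.90 without that library.

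A higher value at 20 min than at 10 min was also seen in Lalb_Chr03g0026671 (chromosome 3, 1265929 to 1268986, a transferase activity term). It had deposited values of 3, 3 and 2 before sucrose, 2, 3 and 1 after 10 min, 2, 4 and 3 after 15 min and 5, 6 and 5 after 20 min. All 3 libraries of 20 min exceeded the other 9. The difference from 10 min was 1.13 ± 0.37 (SE, unadjusted p = 0.0097, adjusted p = 1 in limma).

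Among the genes of the CCR4-NOT complex, 7 of 10 were tested and 3 exceeded a value of 3 in any library. Lalb_Chr19g0137531 (chromosome 19, 16683601 to 16691926) stood at 0 before sucrose and after 10 min, at 0, 1 and 1 after 15 min and at 1, 2 and 1 after 20 min. Its difference at 20 min was 1.19 ± 0.33 (SE, unadjusted p = 0.00376, adjusted p = 0.979 in limma). Lalb_Chr12g0201311 of the same group moved the other way at 15 min, with 2, 1 and 4 in the control against 0, 1 and 1 (unadjusted p of at most 0.05), and had 3, 5 and 4 at 20 min.

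In the histone modification group, 5 of 6 genes were tested. Lalb_Chr04g0264371 (chromosome 4, 16519824 to 16528650), annotated as a histone H3-K9 demethylase, was at 0 before sucrose, at 1, 0 and 0 after 10 min, at 0 after 15 min and at 1, 1 and 2 after 20 min, all 3 of which lay above the control. The difference at 20 min was 1.19 ± 0.33 (SE, unadjusted p = 0.00348, adjusted p = 0.979 in limma). The 3 genes of this group on chromosome 18, Lalb_Chr18g0049491, Lalb_Chr18g0049541 and Lalb_Chr18g0049651, had values of 0 to 6 in every library and none was past 0.05 before adjustment.

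In the group of transcription factors and transcription regulation, 35 of 50 genes were tested and none was called at 10, 15 or 20 min or over all sucrose. Among all genes 0.648%, 0.564%, 0.826% and 0.47% were called there in either direction. At such shares, no call in this group or in the smaller groups below says little about a role. At an unadjusted p-value of at most 0.05 (limma), 1, 2, 1 and 1 genes were higher and 0 lower, where 2.03%, 1.5%, 3.43% and 2.9% of all genes were higher. The median difference of the group over all sucrose was 0.18, the same as that of all genes tested. Lalb_Chr10g0095201 (chromosome 10, 10895656 to 10900854) was the gene of this group with the smallest p-value. It was at 0 before sucrose, at 1 in each library of 10 and 15 min, and at 1, 0 and 1 after 20 min (0.89 ± 0.26 over all sucrose, SE, unadjusted p = 0.00557, adjusted p = 1 in limma). A step between 0 and 1 is the smallest these values can show.

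The ubiquitin system had 20 of 22 genes tested, none of them called in any contrast. Lalb_Chr01g0022491, described above, was lower at 15 min and over all sucrose at an unadjusted p-value of at most 0.05 (limma). The highest gene of the ubiquitin system, Lalb_Chr05g0214921, had deposited values of 69, 28 and 43 before sucrose, 60, 54 and 25 after 10 min, 38, 48 and 26 after 15 min and 78, 78 and 14 after 20 min. The groups overlapped, with the lowest value in the 20 min replicate 3.

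Of the 5 genes annotated to the response to aluminum and acidic pH, the role of STOP1-type factors, 4 were tested and none passed the unadjusted threshold of 0.05 in any contrast. Lalb_Chr06g0162101 had deposited values of 11, 7 and 12 before sucrose, 16, 7 and 16 after 10 min, 6, 11 and 15 after 15 min and 11, 12 and 15 after 20 min. Lalb_Chr23g0277491 had 9, 10 and 11 before sucrose, 13, 12 and 4 after 10 min, 3, 10 and 6 after 15 min and 10, 12 and 9 after 20 min. The groups overlapped for both genes. Of 9 genes named as malate or MATE transporters, families in which some members release organic acids from roots, 8 were tested and none passed that threshold in any contrast.

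Abscisic acid signaling had 8 genes, annotated to its negative regulation, and 6 were tested. Lalb_Chr24g0395331 was higher at 10 min, with 3, 1 and 2 against 1, 0 and 0 in the control (1.19 ± 0.52, SE, unadjusted p = 0.0402, adjusted p = 1 in limma), and no other gene of the group passed that threshold at 10 min, at 20 min or over all sucrose. Lalb_Chr23g0268331 had deposited values of 24, 27 and 54 before sucrose, 17, 19 and 36 after 10 min, 22, 25 and 44 after 15 min and 29, 23 and 50 after 20 min. Flow cell 3 was the highest at each time (adjusted p = 0.0381 for flow cells, limma F test). The difference over all sucrose was -0.24 (unadjusted p = 0.549).

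Trichome morphogenesis had 4 genes, all tested and none with an unadjusted p-value of at most 0.05 in any contrast. Lalb_Chr05g0217241 had deposited values of 63, 27 and 70 before sucrose, 38, 38 and 58 after 10 min, 31, 66 and 28 after 15 min and 62, 46 and 37 after 20 min. Its groups overlapped.

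The genes annotated to sugar mediated signaling, Lalb_Chr08g0236431 and Lalb_Chr13g0297851, which also carry a ubiquitin transferase term, had values of 0 or 1 and of 0 to 2, respectively. Neither was called in any contrast. The 3 organ growth genes never exceeded 3.

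**Figure D4:**
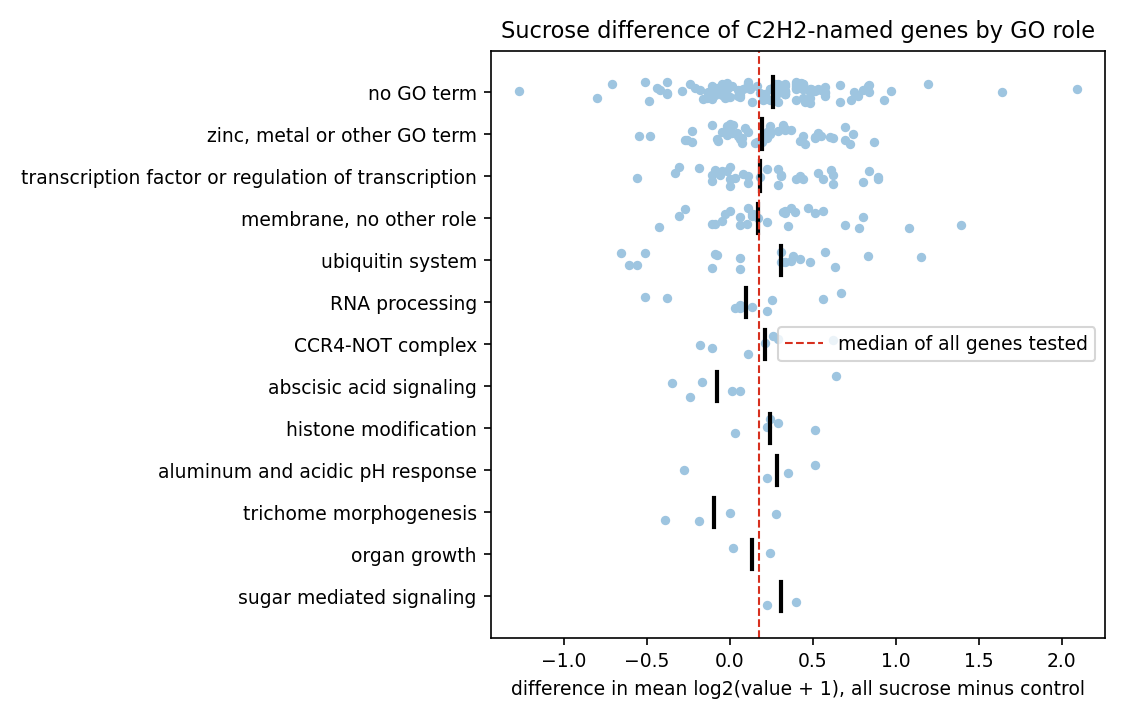
Difference in mean log2(value + 1) between all sucrose and control libraries (x axis) for the 290 C2H2-named genes tested, 1 point a gene, by role (y axis), with a black line at each role's median and a dashed line at the median of all genes tested (0.18). The medians lay between -0.10 (trichome morphogenesis, 4 genes) and 0.31 (ubiquitin system, 20 genes, and sugar mediated signaling, 2 genes).

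Lalb_Chr04g0258671 (chromosome 4, 12489428 to 12490227, membrane term) was at 1, 3 and 1 after 15 min, at 1 in the 20 min replicate 3 and at 0 in the other 8 libraries. Its difference at 15 min was 1.33 ± 0.37 (SE, unadjusted p = 0.00343, adjusted p = 1 in limma). Lalb_Chr24g0395001 (chromosome 24, 1400113 to 1405209, no GO term) was at 1 in all libraries of 20 min, in control replicate 2 and in the 15 min replicate 2, and at 0 elsewhere (1.00 ± 0.37 for 20 against 10 min, SE, unadjusted p = 0.0183, adjusted p = 1).

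Over the 4 time points together, an F test gave an unadjusted p-value of at most 0.05 for 8 C2H2-named genes (2.76%, against 2.01% of all genes) and for none after adjustment (0.00523% of all genes, limma). With the flow cell as a block, 14 passed without adjustment (4.83%, against 3.41% of all genes).

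Between flow cells the differences were more frequent. In an F test of the flow cell 66 C2H2-named genes (22.8%) had an unadjusted p-value under the threshold, against 24.7% of all genes, and the adjusted p-value was 0.05 or lower for 26 C2H2-named genes (8.97%, against 9.59% of all genes, limma). The mean of flow cell 3 lay above both other flow cells in 21 of the 26 and below both in 5. None of the 26 was among the genes called in a time or sucrose contrast.

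Lalb_Chr06g0164251 (chromosome 6, 2203214 to 2203713, no GO term) had deposited values of 31, 7, 7 and 5 in flow cell 3, at the control, 10, 15 and 20 min, and 0 in the other 8 libraries. Lalb_Chr12g0196951 (chromosome 12, 524266 to 526906, membrane term) had 9, 9, 12 and 11 in flow cell 3 and 0 to 2 elsewhere. Lalb_Chr02g0145221 had 5, 3, 3 and 5 in flow cell 3 and was at 0 elsewhere except for 1 in the 20 min replicate 1. The flow cells of these 3 genes differed with adjusted p-values of 0.00101, 0.00105 and 0.00126 (limma F test), and flow cell 3 did not overlap with the others. All 4 libraries of flow cell 3 lay above the other 8 for 19 C2H2-named genes (6.55%, against 7.86% of all genes) and below them for 4 (1.38% against 1.94%).

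The flow cells hold separate biological replications, so the sequencing run and the plants cannot be told apart, and the green tissue share moved with flow cell 3 as given above. Its part in these values was not tested.

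Lalb_Chr10g0091851 (chromosome 10, 819880 to 820534, no GO term) shows how a flow cell and a time contrast met. Its deposited values were 2, 0 and 36 before sucrose, 0, 1 and 16 after 10 min, 0, 0 and 14 after 15 min and 0 in all libraries of 20 min. In flow cell 3 the value was lower at each sucrose time than in the control, and in the other flow cells it was at 0 to 2 throughout. The difference at 20 min was -2.26 ± 1.41 (SE) and was not called (unadjusted p = 0.134). With the flow cell as a block it was called (unadjusted p = 0.0236 in limma).

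**Figure D5:**
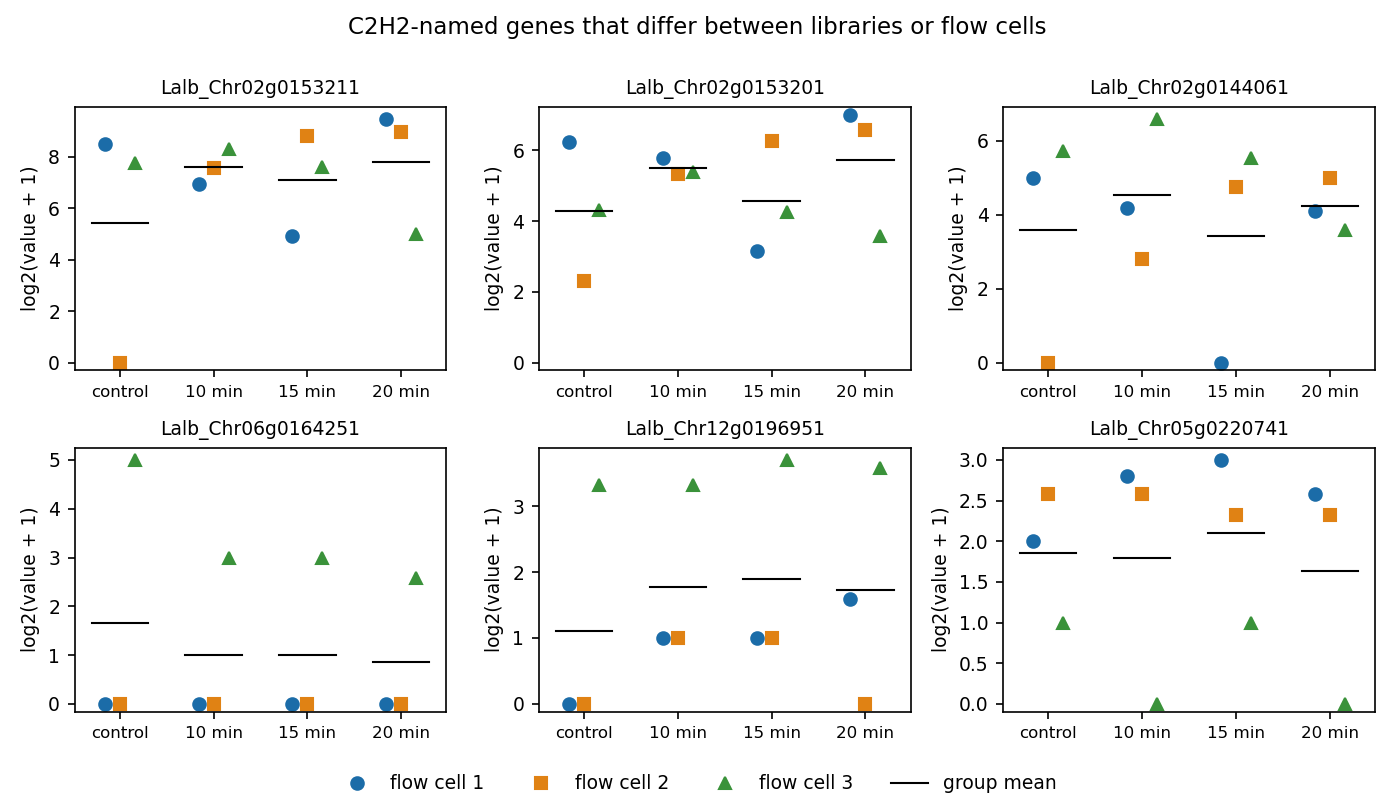
log2(value + 1) (y axis, own scale per gene) of 6 C2H2-named genes in the 12 libraries by time (x axis), points by flow cell and a line at each group's mean. The green triangles of flow cell 3 lie above the other flow cells in Lalb_Chr06g0164251 and Lalb_Chr12g0196951 and below them in Lalb_Chr05g0220741 (adjusted p = 0.00646), while the genes of the top row drop to 0 or near it in control replicate 2.

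Some C2H2-named genes with high values were listed at 0 in single libraries. Of 38 genes that reached 20 somewhere, 10 stood at 0 in another library (26.3%, against 18.3% of all genes that reached 20). Control replicate 2 held 7 of these zeros and the 15 min replicate 1 held 5, the libraries with the lowest sums, and each other library held 0 or 2.

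Lalb_Chr02g0153211 (chromosome 2, 8403568 to 8403801, no GO term) had deposited values of 360, 0 and 215 before sucrose, 122, 190 and 315 after 10 min, 29, 446 and 196 after 15 min and 710, 495 and 31 after 20 min. The difference over all sucrose was 2.09 ± 1.58 (SE, unadjusted p = 0.212 in limma) with all libraries and -0.62 without control replicate 2, the library at 0. Lalb_Chr02g0144061 (chromosome 2, 1817548 to 1818466, no GO term) had values of 31, 0 and 52 before sucrose, 17, 6 and 95 after 10 min, 0, 26 and 45 after 15 min and 16, 31 and 11 after 20 min. It too was at 0 in control replicate 2, and also in the 15 min replicate 1. Its difference over all sucrose was 0.48 with all libraries and -1.31 without control replicate 2.

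The neighbor of Lalb_Chr02g0153211, Lalb_Chr02g0153201 (chromosome 2, 8403088 to 8403553), ends 14 bases before it and is also named C2H2. Its deposited values were 74, 4 and 19 before sucrose, 54, 39 and 41 after 10 min, 8, 76 and 18 after 15 min and 127, 95 and 11 after 20 min. Both genes were low in control replicate 2, in the 15 min replicate 1 and in the 20 min replicate 3, and highest in the 20 min replicate 1. Across the 12 libraries, which share depth and flow cell, their log2(value + 1) had a Pearson r of 0.873 and a Spearman rho of 0.909, given as a description. Whether reads of a single transcript were divided between these gene models was not tested. Other neighboring pairs of C2H2-named genes had a Pearson r of -0.302, -0.26, -0.0979 (1 base apart), 0.0851 and 1. The pair at 1 was Lalb_Chr03g0028041 and Lalb_Chr03g0028051. An r of 1 is also reached when both genes are above 0 in the same single library, so it is not read as a closer relation.

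Other gene families named as transcription factors are set beside the C2H2-named genes without a test between lists. At 20 min, 5 of 139 bHLH genes tested, 1 of 63 WRKY genes, 3 of 116 AP2-EREBP genes and 17 of 1423 genes under any other transcription factor name, these families included, were called higher, and none of these lists had a gene called lower. Among all genes tested 0.695% were called higher and 0.131% lower at that time. Of 40 GRAS genes, a family known in Arabidopsis to hold partners of C2H2 factors of the IDD type, none was called in any contrast. Of 101 other zinc finger genes tested, none was called in a contrast with the control. No gene name matched the word topless.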

How the data were processed

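Whole-gene values of 12 libraries were analysed, 3 for each of 4 groups. Per the study's methods, the authors used Pychopper to orient Nanopore reads, Minimap2 to map them against the assembly CNRS_Lalb_1.0, StringTie for transcript assembly and Salmon for counting. The deposited values are named CPM but are whole numbers whose sums differ between libraries, so they were treated as a score of unknown scale. The number of reads behind a value is unknown, and no counting interval is given. The labels describe 3 plants per replication and the study's methods 1, and p-values measure the spread between these libraries. The authors' DESeq2 comparison table, with fold changes and p-values, was not used.

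log2(value + 1) was fitted in limma 3.58.1 (R 4.3.3) with a variance trend, in a single model of 4 groups over the 19138 genes that reached 1 in 3 or more libraries, with Benjamini-Hochberg adjustment over all of them. The design had assumed this test for values of unknown scale. Calls used a log2 difference of 1.5 and an unadjusted p-value of 0.05. Exact permutation tests of single genes are not given, since genes were named for groups that did not overlap, which itself fixes or nearly fixes such a p-value. The fit was run on simulated data, but with median-of-ratios scaling, with changes only in genes with a mean of at least 5 and without a flow cell effect. That run therefore does not cover the unscaled main fit or genes of lower values, and its outcome is not given here. Replicate numbers pair the libraries, since the methods give each replication its own flow cell. The median correlation of deviations from the group means was 0.284, 0.259 and 0.532 within flow cells 1, 2 and 3 and -0.335 between different flow cells and time points. Deviations from a group mean cancel out over its 3 libraries. A positive correlation within flow cells therefore brings a negative one between them, and the -0.335 is no separate evidence of pairing.

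Members were all genes with the words transcription factor C2H2 in the protein name. The members and lists were chosen with earlier results of these data known, and the role groups after the GO terms were seen. Genes were named if they were called, if their sucrose and control libraries did not overlap, if they were among the 3 smallest p-values of a contrast or of the flow cell test, among the 6 highest medians or among the 3 highest means with a 0 in a library. Other genes were named after their values were seen. Locus tags of all 23427 genes were found in the RefSeq table of CNRS_Lalb_1.0. Sequences were not used here. Alternatives were pseudocounts of 0.5 and 5, no filter, a mean of at least 5, scaling by median of ratios or by totals, the replicate block, and leaving out each library. Leaving out flow cell 3, leaving out control replicate 2 with the 15 min replicate 1, and the block with scaling were added after seeing the data.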

Additional observations from a re-analysis of the deposited data

Results flagged for a closer look

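Between 10 and 20 min of sucrose, 2 C2H2-named genes passed both call thresholds (0.69%, against 0.23% of all genes tested). At an unadjusted p-value of at most 0.05 alone, 10 were higher and 1 lower, and 0 passed after adjustment (limma). Lalb_Chr01g0015931 was higher at 20 min by 2.23 in log2(value + 1) (unadjusted p = 0.0386, adjusted p = 1 in limma), and its value at 20 min was 61 in replicate 3 against 2 and 4 in the others. Lalb_Chr06g0171051 was higher at 20 min by 2.30 (unadjusted p = 0.0476, adjusted p = 1 in limma, and unadjusted p = 0.0508 with the flow cell as a block), with 32, 34 and 16 against 10, 2 and 4, all 3 libraries of 20 min above all 3 of 10 min. The former call held when 8 of the 12 libraries were left out singly, and the latter when 5 were.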

How the results depend on the processing

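The numbers of called C2H2-named genes were small and moved under most alternatives, but not without a filter on low values. Higher calls at 10, 15 and 20 min, over all sucrose and for 20 against 10 min (1, 1, 1, 1 and 2) became 7, 6, 9, 2 and 3 with a pseudocount of 0.5, 0, 0, 0, 0 and 1 with one of 5, and 0 in each with a mean of at least 5. Median-of-ratios scaling gave 0, 2 and 0 at 10, 15 and 20 min (the lost calls at 1.48 and 2.17), and equal totals 2 at 15 min. All genes had 81, 93 and 73 higher with the former and 120 at 15 min with the latter. The replicate block, which pairs the libraries of a flow cell, gave 2 higher and 1 lower at 20 min, 1 higher for 20 against 10 min, and 14 genes in the F test over time (8 without it). All genes had 166 higher and 38 lower at 20 min with this block. Together with median-of-ratios scaling the block gave 0 at 10 min, 2 at 15 min, 1 lower at 20 min and 13 in the F test. All genes had 98 and 111 higher at 10 and 15 min and 63 lower at 20 min in that fit. Without flow cell 3 the calls were 3, 2 and 3 at the 3 times, 1 higher and 2 lower for 20 against 10 min, 14 in the F test and 0 between the remaining flow cells. All genes then had 312, 178 and 386 higher at the 3 times, and 9.01% in the F test against 5.51% of the C2H2-named genes. Without control replicate 2 and the 15 min replicate 1 the C2H2-named counts were 2, 2 and 0 higher, 1 lower at 15 and at 20 min, 1 for 20 against 10 min and 13 between flow cells (26 with all). All genes had 79, 118 and 105 higher at the 3 times without these libraries. A pseudocount of 0.5 gave 1 lower at 15 min and 1 lower for 20 against 10 min, where all genes had 63 and 73 lower. The mean filter gave 0 in the F test and 9 between flow cells. Leaving out each library in turn gave 1 to 4 higher at 10 min, 1 to 3 at 15 min, 0 to 4 at 20 min, 0 to 3 over all sucrose and 0 to 3 for 20 against 10 min, 0 to 1 lower at 15 min, at 20 min and for 20 against 10 min, 7 to 13 in the F test and 7 to 22 between flow cells. Lalb_Chr19g0133271 was called at 10 and 15 min in all 12 of these fits and over all sucrose in 11, the exception being without the 20 min replicate 3 (1.49). The highest of the C2H2-named counts came without control replicate 1 or 3 at 10 min, without control replicate 1 or the 15 min replicate 3 at 15 min, without the 20 min replicate 1 at 20 min, and without the 15 min replicate 3 in the F test, and the lowest between flow cells without the 15 min replicate 3. None of the contrasts called or listed for their small p-values turned its direction. Over all sucrose, Lalb_Chr02g0153211 and Lalb_Chr02g0144061 were at -0.62 and -1.31 without control replicate 2 (2.09 and 0.48 with it). The median difference at 15 min was -0.02 without control replicate 2 and -0.05 without the 15 min replicate 3. The cause of the other moves was not tested. With values of a few units, the smallest possible step decides many calls.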
